A study of Mus musculus with 9 samples.

Results

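Among 9 RNA-seq libraries of mouse subcutaneous fat, 3 held far more skeletal muscle transcripts than the other 6, and the genes that separate these sides are described here. The sides were chosen by measured values: after estimated counts were summed to genes, WT 1, WT 2 and Hete KO 2 had over 0.15% of all their counts in Acta1, Ckm, Myh4 and Mylpf, and WT 3, Hete KO 1, Hete KO 3 and Homo KO 1 to 3 did not. They are called the muscle-high and muscle-low libraries below. The groups were WT, Hete KO and Homo KO, with 3 libraries each, where the knockout is of AGO1 (an Argonaute protein that binds microRNAs) in endothelial cells, and WT animals were littermates of the knockouts. Each library came from C57BL/6 mice at 24 weeks of age, from tissue frozen in liquid nitrogen and extracted with Trizol. The sources used here do not give the driver of the endothelial deletion, the sex of the animals or the part of the subcutaneous depot taken. The labels do not tie a library to an animal beyond its replicate number, so p-values measure the spread between these samples. In whole tissue, fewer cells of a type and less RNA per cell cannot be told apart. Targeted in the endothelium only, Ago1 was at 63.4 to 69.9 CPM in WT, 51.2 to 60.1 in Hete KO and 25.8 to 62.2 in Homo KO, where Homo KO 3 was the lowest.

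Skeletal muscle fibres are built of sarcomeres, in which thick filaments of myosin pull on thin filaments of actin under the control of troponin and calcium. Fibres differ by their myosin heavy chain: Myh7 marks slow fibres, Myh2 and Myh1 faster ones and Myh4 the fastest, glycolytic ones. In the mouse a thin sheet of skeletal muscle, the panniculus carnosus, lies in the skin next to the subcutaneous fat.

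The 4 genes of the rule encode the actin of skeletal thin filaments (Acta1), the muscle creatine kinase that rebuilds ATP (Ckm), the fastest myosin heavy chain (Myh4) and the regulatory light chain of fast myosin (Mylpf). Because these genes moved together, the 250 bases before the RefSeq transcription start of each (build GRCm38.p6) are shown, 5′ to 3′ on the gene's strand, with matches to 4 muscle motifs in capitals: CAGCTG (an E-box of the kind bound by myogenic factors), CATTCC (the core of the site of TEAD factors), the MEF2 site and the CArG box of serum response factor. Both strands were searched.
Acta1, chr8:123894776-123895025, minus strand: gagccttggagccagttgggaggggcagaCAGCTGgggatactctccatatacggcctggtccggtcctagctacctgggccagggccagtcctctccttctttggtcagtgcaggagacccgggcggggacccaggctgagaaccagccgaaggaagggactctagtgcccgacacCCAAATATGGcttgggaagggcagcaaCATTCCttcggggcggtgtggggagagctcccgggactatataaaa
Ckm, chr7:19410844-19411093, plus strand: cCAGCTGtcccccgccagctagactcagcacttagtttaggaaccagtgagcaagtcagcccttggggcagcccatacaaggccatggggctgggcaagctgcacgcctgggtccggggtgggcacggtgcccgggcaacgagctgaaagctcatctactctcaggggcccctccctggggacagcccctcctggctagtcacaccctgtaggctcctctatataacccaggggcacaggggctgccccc
Myh4, chr11:67237562-67237811, plus strand: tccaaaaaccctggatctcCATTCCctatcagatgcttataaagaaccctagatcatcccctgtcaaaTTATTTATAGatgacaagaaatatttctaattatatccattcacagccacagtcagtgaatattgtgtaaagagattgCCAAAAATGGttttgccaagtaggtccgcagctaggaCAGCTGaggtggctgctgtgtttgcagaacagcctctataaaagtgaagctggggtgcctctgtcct
Mylpf, chr7:127211358-127211607, plus strand: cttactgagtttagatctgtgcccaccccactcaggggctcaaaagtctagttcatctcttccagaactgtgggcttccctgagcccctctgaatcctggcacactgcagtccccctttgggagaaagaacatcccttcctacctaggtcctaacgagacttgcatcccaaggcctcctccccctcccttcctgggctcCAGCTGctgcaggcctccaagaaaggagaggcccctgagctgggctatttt

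CAGCTG was present in all 4 windows, starting 221, 249, 67 and 51 bases before the start of Acta1, Ckm, Myh4 and Mylpf. Acta1 also had a CArG box 73 bases and CATTCC 46 bases before its start, and Myh4 had CATTCC at 231, a MEF2 site at 182 and a CArG box at 104 bases. No motif of the 4 overlapped another in these windows. Of the 166 genes of the 9 muscle lists used below, 125 matched the RefSeq table, with 160 windows. CAGCTG was in 28.7% of these windows and in 13.0% of all 32851 windows of the same length. The MEF2 site was in 11.9% against 2.92%, the CArG box in 7.5% against 1.47% and CATTCC in 16.9% against 12.6%. A match describes the letters only, and binding was not measured.

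Of all estimated counts, WT 1 had 0.759%, WT 2 0.699% and Hete KO 2 2.02% in the 4 markers. It was 0.0848% in Hete KO 1, 0.0220% in Hete KO 3, 0.0155% in Homo KO 1, 0.00795% in Homo KO 2, 0.00385% in WT 3 and 0.00218% in Homo KO 3. WT 2 was the nearest library inside the threshold and Hete KO 1 the nearest outside it. The muscle-low libraries were therefore not free of muscle transcripts, since the 4 genes still gave 559 estimated counts in Homo KO 3 and 23242 in Hete KO 1, and they were spread over a wider range than the muscle-high ones. The 166 genes of the muscle lists together took 4.62, 3.81 and 10.4% of counts in WT 1, WT 2 and Hete KO 2. They took 0.836% in Hete KO 1 and 0.323 to 0.423% in the other 5 libraries. Depth, as total estimated counts, ran from 20843427 to 28252001, and did not separate the sides.

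**Figure D1:**
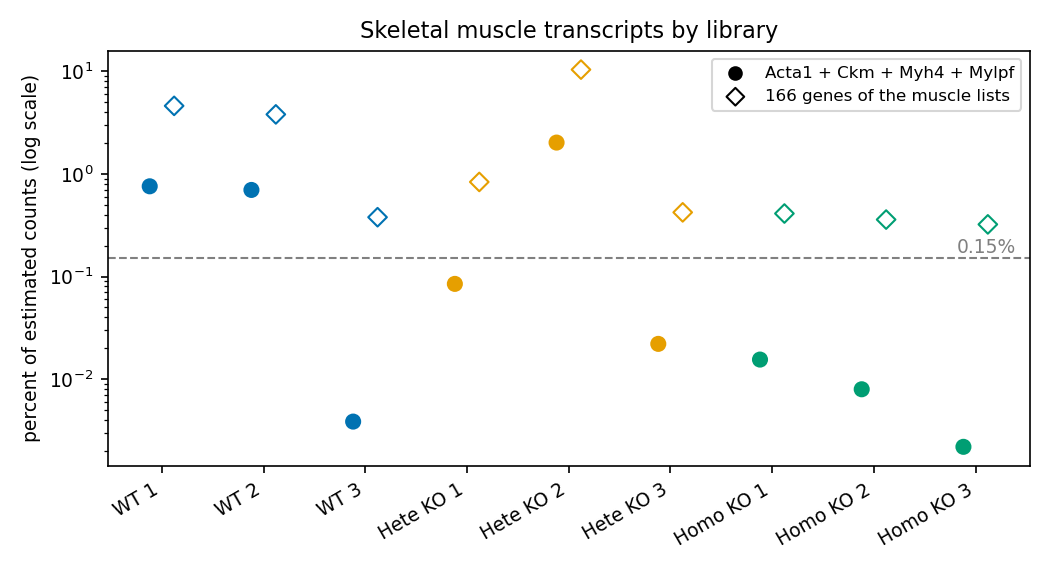
Percent of all estimated counts (log axis) in each library held by the 4 markers (filled circles) and by the 166 genes of the muscle lists (open diamonds), coloured by genotype, with the 0.15% rule as a dashed line. Markers in WT 1, WT 2 and Hete KO 2 lie between 0.699 and 2.02%, and in the other libraries between 0.00218 and 0.0848%.

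Levels below are CPM, counts scaled to library size after TMM normalization, unless TPM, which is per transcript length, is named. Where single values are listed, they come in the order WT 1, WT 2, Hete KO 2 for the muscle-high libraries, then WT 3, Hete KO 1, Hete KO 3, Homo KO 1, Homo KO 2, Homo KO 3 for the muscle-low ones. Acta1 was at 1777, 1689.7 and 4649 CPM in the muscle-high libraries, and 18, 231, 49.5, 44.3, 27.2 and 14.3 in the muscle-low ones. Ckm was at 496, 544 and 1582 CPM in the muscle-high libraries, and 2.53, 53.1, 15.7, 7.97, 4.56 and 1.07 in the muscle-low ones. Myh4 was at 5098, 4180.2 and 16033 CPM in the muscle-high libraries, and 17.8, 566, 155, 91.8, 48.8 and 6.98 in the muscle-low ones. In each of these genes Hete KO 2 was the highest library, the WT pair followed, and Hete KO 1 was the highest of the muscle-low libraries. Mylpf was at 80.6, 96.1 and 208 CPM in the muscle-high libraries, and 0.428, 11.5, 3.26, 2.13, 0.998 and 0.657 in the muscle-low ones. These values chose the libraries and are given without a test. Per transcript length, Acta1 was the most abundant of the 4, at 1858 to 4979 TPM against 14.9 to 264, and Mylpf the least in the muscle-high libraries, at 259.9 to 605 TPM against 2.03 to 35.6.

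Of all 166 muscle list genes, 116 (69.9%) were higher in each of the 3 muscle-high libraries than in each of the other 6. Over the 17968 genes that passed the filter on low counts, 3.60% did so, a share that includes 150 genes of the muscle lists. In 93 of the 166 the lowest muscle-high library was at least 2-fold above the highest muscle-low one, against 1.13% of the genes tested. The count rests on the same libraries that the rule used and is no test. One gene, Sgcd, was below in all 3, and the other 49 overlapped. Over all 166 genes the median log2 ratio of the median of the 3 to the median of the 6 was 2.84, computed with 0.5 added to each CPM, against -0.00 over the genes tested. Hete KO 2 was the highest of the 9 libraries for 131 of the 166 genes, and Hete KO 1 the highest of the muscle-low libraries for 101. Over the 17968 genes tested these counts were 2859 and 2222.

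Thick filament and M band genes were above in 9 of 19. Mybpc2, the fast isoform of myosin binding protein C, which trims cross-bridge movement, was at 263 to 833 CPM against 0.392 to 32.9. Myl1, the essential light chain of fast myosin, was at 691 to 1593 CPM against 56.2 to 138, and Mylk4, a kinase of the myosin light chain kinase family, at 357 to 1406 CPM against 7.48 to 44.5. Myom1 and Myom2, which tie thick filaments together at the M band, were at 167 to 619.7 CPM against 4.35 to 25 and 119 to 328 CPM against 1.56 to 18.2. The 10 members that overlapped were the heavy chains other than Myh4, the slow light chains Myl2 and Myl3, Mybpc1, Mybph and Myom3.

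Thin filament genes were above in 15 of 20. Neb, encoding nebulin, the ruler of thin filament length, was at 1210.2 to 6211 CPM against 12.9 to 227. Fast troponins stood apart from slow ones within this list. Tnni2, Tnnt3 and Tnnc2, the fast inhibitory, tropomyosin-binding and calcium-binding subunits, were at 338 to 981 CPM against 0.698 to 38.7, 293 to 1004 CPM against 0.863 to 41.3 and 144 to 263 CPM against 0.713 to 18.2. Their slow counterparts Tnni1, Tnnt1 and Tnnc1 overlapped, at 0.281 to 0.752 CPM against 0.222 to 0.713, 1.84 to 2.24 CPM against 1.03 to 2.53 and 7.9 to 12 CPM against 6.7 to 17.3. Tpm2 and Tpm1, tropomyosins that cover the myosin-binding sites of actin, were at 323 to 924 CPM against 2.26 to 55.1 and 784 to 1859 CPM against 56.5 to 126, whereas Tpm3 overlapped at 113 to 182 CPM against 141 to 171.

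Z disc, titin and intermediate filament genes were above in 16 of 23. Ttn (titin, the spring that spans the sarcomere) was at 19528, 12631 and 49967 CPM in the muscle-high libraries, and 61.6, 2409.5, 531, 379.6, 213 and 38.5 in the muscle-low ones. Titin took the largest number of counts of any muscle list gene in all of the 3 muscle-high libraries, although its transcripts are very long: per length it was at 320.1 to 1085 TPM against 1.22 to 100.4, below Acta1. Xirp2, Actn3 and Des, encoding an actin-binding Xin protein, the fast-fibre α-actinin and desmin, were at 475 to 1767 CPM against 1.07 to 83.7, 430.4 to 1287 CPM against 0.616 to 53.7 and 235 to 552 CPM against 13.2 to 42.5. Cryab and Fhl1, a small heat shock protein and a LIM domain protein that other tissues also express, overlapped at 48.3 to 57.9 CPM against 47.6 to 62.5 and 172 to 229 CPM against 178 to 241.

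Excitation and calcium handling genes were above in 20 of 23, and the membrane, dystrophin complex and repair list in 10 of 13. Atp2a1, the calcium pump of fast fibres, was at 1248 to 3819 CPM against 2.26 to 173. Ryr1, the calcium release channel, and Cacna1s, the voltage sensor that opens it, were at 561 to 2100.1 CPM against 3.12 to 95.9 and 134 to 438 CPM against 0.0411 to 19.8. Pvalb, the calcium buffer parvalbumin of fast fibres, was at 315 to 651 CPM against 0.493 to 37.6. Sln, a small inhibitor of the calcium pump, had no count in any library, which allows up to 3 counts in each. Cmya5, encoding myospryn, was at 441 to 1822 CPM against 27 to 109, while Dmd, encoding dystrophin, was closer between the sides at 95.6 to 176 CPM against 44.9 to 63.6. Sgcd, a sarcoglycan also made by smooth muscle, was the gene below in all 3, at 96 to 145 CPM against 149.8 to 166.

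Energy metabolism genes were above in 15 of 20. Pygm, which breaks down glycogen in muscle, was at 267 to 921 CPM against 0.945 to 33.3, Eno3, the muscle enolase, at 171 to 525 CPM against 3.82 to 22.1 and Pfkm, the muscle phosphofructokinase, at 200.0 to 687 CPM against 18.3 to 43.3. Enzymes that fat itself expresses moved less: Aldoa was at 1280.2 to 2217 CPM against 550.2 to 860.4, and the overlapping Gys1 at 94.3 to 164 CPM against 83.2 to 139. Mb, the oxygen store myoglobin of oxidative fibres, was low throughout, at 1.88 to 11.7 CPM against 0.0357 to 5.56.

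Neuromuscular junction genes were above in 5 of 11, and the satellite cell and myogenic regulator list in 9 of 18. Musk, the kinase that gathers acetylcholine receptors under the nerve ending, was at 4.61 to 11.9 CPM against 0.0821 to 0.779. Myf6, the myogenic factor kept on in mature fibres, was at 14.6 to 31.3 CPM against 0 to 1.45. Mstn (myostatin, a secreted brake on muscle growth) was at 22, 11.1 and 37.9 CPM in the muscle-high libraries, and 2.39, 2.89, 0.632, 1.95, 1.05 and 1.07 in the muscle-low ones, so the sides did not overlap. Pax7, which marks satellite cells, had 5, 0 and 16 estimated counts in the muscle-high libraries and 0 in the other 6. Myod1, a myogenic factor of activated satellite cells, had 5, 4 and 47 estimated counts in the same 3 and 0 in the other 6. Myog, which drives the fusion of myoblasts, had 7 counts in Homo KO 3, 3 in Hete KO 2, 1 in WT 1 and none in the rest. With so few counts, and up to 3 allowed by a count of 0, levels of these regulators could not be compared beyond saying that they were near 0. In the list of other muscle-selective genes 17 of 19 were above, among them Eef1a2, the translation elongation factor of muscle and neurons, at 78.1 to 216 CPM against 0.0411 to 8.71.

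**Figure D2:**
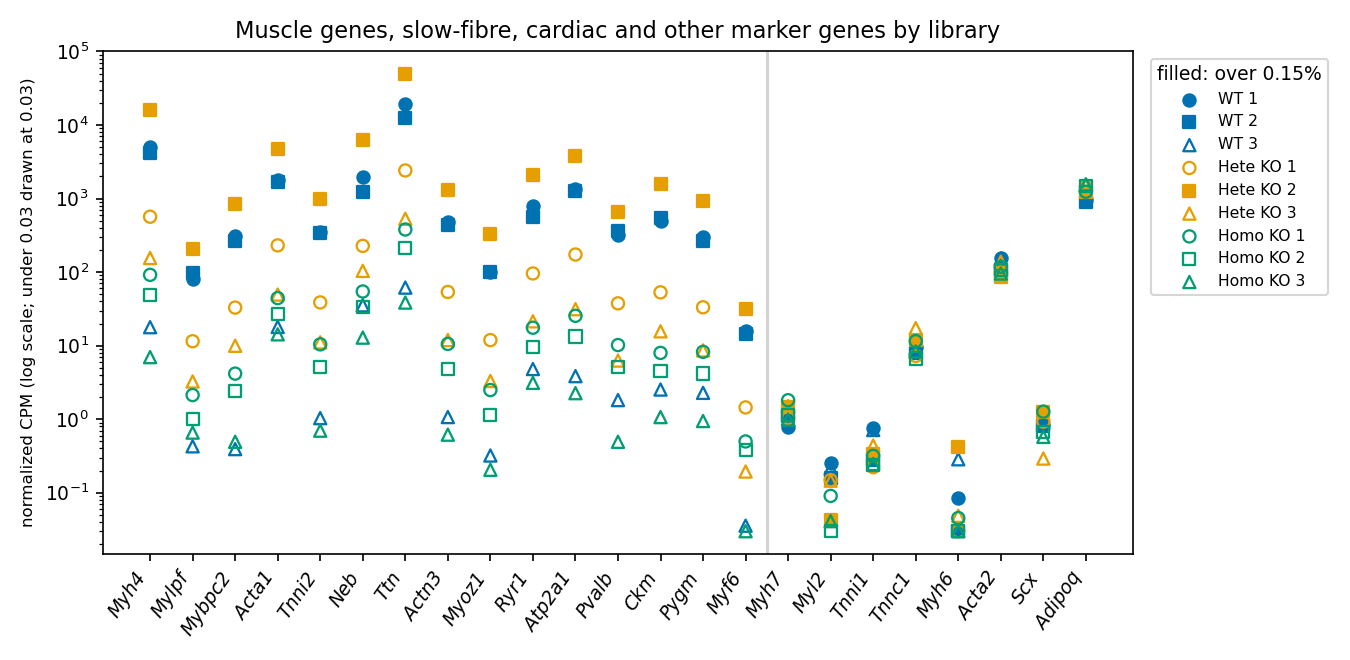
Normalized CPM (log axis) of single genes in each library, with colour for genotype, shape for replicate and filled symbols for the muscle-high libraries. To the left of the grey line, muscle genes and fast-fibre genes have the 3 filled symbols above all open ones, and to the right slow-fibre, cardiac, smooth muscle, tendon and fat genes do not.

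By fibre type, 12 of 14 fast-type genes were above in all 3 and 0 of 11 slow-type genes were, against 3.60% of the genes tested. These lists share members with the muscle lists. For a list of 11 genes, 0 above is near the 3.60%, so it says little by itself. The slow genes Myl2, Myl3 and Tnni1 were under 1 CPM in every library. Median log2 ratios were 5.55 for fast-type and 0.10 for slow-type genes. The slow-type value depended on the scaling: within WT the median was 0.02 in CPM and 0.65 in TPM. The 2 fast-type genes that overlapped were Myh1 and Myh2, and in both it was because Hete KO 1 was the highest library. Myh1 was at 7.35, 16.9 and 30.8 CPM in the muscle-high libraries, and 0.57, 58, 1.7, 1.36, 0.856 and 0.534 in the muscle-low ones. Myh2 was at 1.92, 1.88 and 3.08 CPM in the muscle-high libraries, and 0.143, 10.5, 0.632, 0.544, 0.475 and 0.575 in the muscle-low ones. Myh7 was at 0.793, 1.12 and 1.48 CPM in the muscle-high libraries, and 0.998, 1.04, 1.51, 1.81, 1.14 and 0.986 in the muscle-low ones. Myh7 was thus near 1 CPM in every library.

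Heavy chains were compared per transcript length. Myh4 held 99.7% of the summed TPM of Myh1, Myh2, Myh4 and Myh7 in WT 1 and Hete KO 2 and 99.3% in WT 2, but 87.1% in Hete KO 1. For 100 TPM of Myh4 the muscle-high libraries had 0.237, 0.442 and 0.215 TPM of Myh1, whereas Hete KO 1 had 12.7. That value rested on 1564 estimated counts of Myh1 and 15274 of Myh4. The same ratio was 1.49 in Hete KO 3, 1.46 in Homo KO 1 and 3.02 in Homo KO 2, from 35.3, 29.6 and 18.5 Myh1 counts. Ratios in WT 3 (10.4) and Homo KO 3 (14.7) rested on 15.8 and 13.2 counts of Myh1. The heavy chain genes are close paralogs, so how estimated counts were divided between them is uncertain. Hete KO 1 also had more Mybpc1, the slow-type myosin binding protein C, with 2.63 estimated counts for 100 of Myh4 against 0.164 to 0.508 in the muscle-high libraries, and more Mb, with 0.982 against 0.0369 to 0.119. The fast-type genes Pvalb, Actn3 and Atp2a1 had 6.64, 9.48 and 30.6 counts for 100 of Myh4 in Hete KO 1, against 4.06 to 8.57, 8.03 to 10.3 and 23.8 to 29.9 in the muscle-high libraries. Hete KO 1 therefore differed from them in the ratio of some fibre-type genes to Myh4, with 1 library and no replicate.

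**Figure D3:**
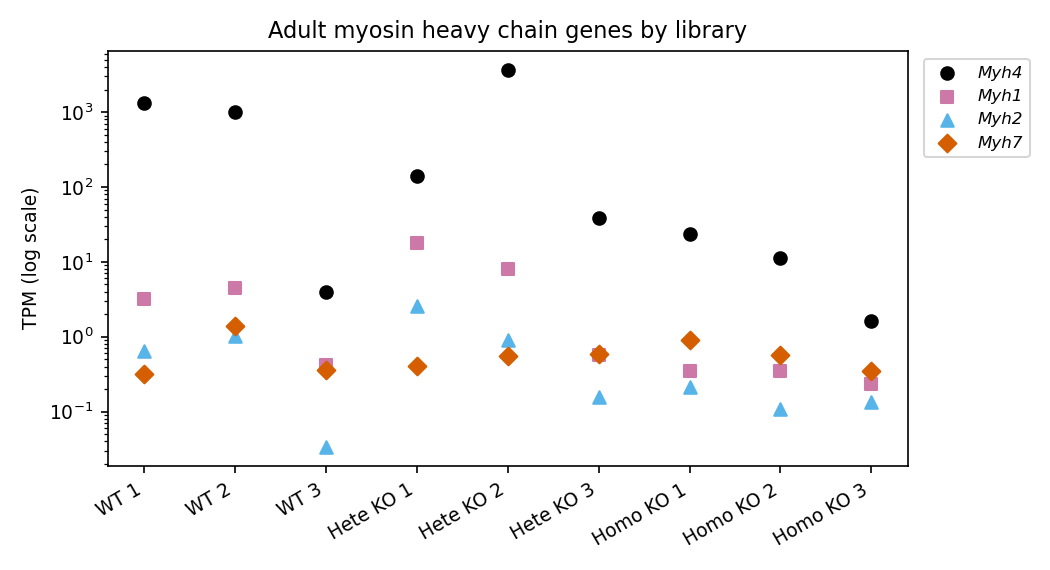
TPM (log axis) of Myh4, Myh1, Myh2 and Myh7 in each library. Myh4 is the highest in every library, and Hete KO 1 stands out with 18.0 TPM of Myh1 and 2.58 TPM of Myh2 beside 141 TPM of Myh4, while Myh7 stays between 0.319 and 1.39 TPM throughout.

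To see whether the muscle genes kept fixed proportions, each was divided by the 4 markers of the same library. Considered were the 61 muscle list genes above in all 3 with at least 100 estimated counts in each of the 3 and a median at least 20-fold that of the 6, so these genes were chosen by their values. Of the 61, 54 varied by less than 2-fold in this ratio over the 3 muscle-high libraries and 36 by less than 1.5-fold. The 61 include the 4 markers themselves. Their ratios to their own sum are partly fixed in advance, most of all for Myh4, which held most of that sum. Hete KO 2 exceeded WT 1 by a median of 2.62-fold in CPM, from 1.15-fold for Pdlim3, a Z disc protein, to 3.44-fold for Asb5, an ankyrin repeat protein of muscle. This choice favoured genes low in Hete KO 1, so its ratios over the 61 are not counted. Among the muscle list genes outside the 61, the ratio to the markers in Hete KO 1 was 49.2 times the median of the 3 for Myh1, 47.6 times for Myh2, 12.4 times for Mb and 12.3 times for Mybpc1. It was also 12.2 times for Myh8 and 11.3 times for Myh7, whose level was alike on both sides. The markers were lower in Hete KO 1, so a gene with a flat level also gets a high ratio there.

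Paired isoenzymes gave a comparison inside each library, with the gene of a pair that muscle uses set against its partner. Not every pair sets a muscle-selective gene against a widely made one. Gys1, the muscle gene of its pair, is also expressed by fat. The partners Mybpc3 and Ckmt1 were at 0 to 0.679 and 0 to 0.379 CPM over all libraries and did not pass the filter on low counts. Of 20 pairs, the muscle gene was above in all 3 muscle-high libraries in 17 and the partner in 0, with 0 partners below. Ckm and Acta1 are among the 4 genes that chose the libraries, so their place was set by the rule. Over the genes tested 3.60% were above and 1.45% below, so 0 partners on either side is near these shares. Ckm held 95.5, 93.4 and 98.7% of the TPM of Ckm and Ckb in the muscle-high libraries, and 2.0 to 68.0% in the muscle-low libraries. Ckb itself was at 25.2 to 48.4 CPM against 26.3 to 36.5. Acta1 held 46.3 to 81.1% of the TPM of Acta1 and Actb against 0.863 to 12.6%, with Actb at 1427 to 2079 CPM against 1702 to 1989. Atp2a1 held 82.8 to 95.2% beside Atp2a2, the calcium pump of slow fibres and other cells, against 1.56 to 42.8%. Actn3 held 77.5 to 95.7% beside Actn1 against 1.1 to 36.2%, and Pygm 75.2 to 87.7% beside Pygl, the glycogen phosphorylase of liver, against 0.495 to 19.1%. Rpl3l, a ribosomal protein of muscle that takes the place of Rpl3, held 22.5 to 52.5% of the pair against 0 to 4.69%. The 3 pairs whose muscle gene overlapped were Cox6a2, Cox8b and Gys1 with their partners.

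Transcript isoforms were examined in 10793 genes with at least 100 estimated counts in every library, of which 48 were in the muscle lists. Of their 64376 transcripts, 1.23% had a larger share of their gene's counts in all 3 muscle-high libraries than in any other. In 6 transcripts the gap was at least 20 percentage points. Pfkm-205 held 96.4, 97.8 and 92.5% of Pfkm counts in the muscle-high libraries, whereas Hete KO 1 had 52.2%, Hete KO 3 38.4% and the others 21.4% or less. Pfkm-201 did the reverse, with 2.19 to 5.67% against 41.0 to 89.5%. Tpm1-205 held 49.3 to 51.8% of Tpm1 counts against 0.605 to 25.8%. Dmd-203, an isoform of 14910 bases, held 74.1 to 84.1% of dystrophin counts against 36.4 to 49.9%. Phkg1-201, of the muscle phosphorylase kinase subunit, held 60.6 to 70.3% against 26.3 to 35.7%. Outside the muscle lists, Pde4dip-202, of an anchor protein of phosphodiesterase, held 62.7 to 70.6% against 0 to 25.2%. Eda-207, the other one outside them, was of a gene whose level was not above in all 3. At least 20 points lower were Pfkm-201, Pde4dip-201, Synm-202 and Rcn3-208. How counts were divided between isoforms is uncertain where they share most of their sequence.

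Outside all of the lists, 404 named protein-coding genes with at least 2 CPM in each muscle-high library were above in all 3, 87 of them by at least 2-fold. That they were also above within WT and within Hete KO follows from this. Over all genes tested 3.60% were above and 1.13% by 2-fold, shares that include the muscle lists. Outside the muscle lists 2.99% of the genes tested were above. These shares have no minimum CPM and no limit to named protein-coding genes, so they are not the share for the 404. The first by the gap between the nearest libraries was Tmem233, a small membrane protein, at 26.4 to 73.1 CPM against 0.0357 to 1.71. Mlf1 followed at 13.6 to 50.3 CPM against 0.38 to 1.48. Among the first 15 were further genes known from muscle: Asb11 and Asb15, ankyrin repeat proteins, Myo18b, an unconventional myosin needed for sarcomeres, Scn4b, a sodium channel subunit, Klhl31, a kelch protein, Fbxo40, a ubiquitin ligase subunit, and Ppp1r3a, which brings phosphatase to glycogen. Klhl31 was at 122 to 389 CPM against 4.15 to 18.8 and Ppp1r3a at 63.2 to 332 CPM against 0.164 to 10.3. The splicing regulator Rbfox1, which acts in neurons and muscle, was at 12 to 56.6 CPM against 0.246 to 1.48. Kcnj11, a pore subunit of ATP-sensitive potassium channels, was at 4.29 to 8.85 CPM against 0 to 0.26. The others of the 15 were Tuba8, Sypl2, Shisa4 and Tspan8.

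In the other direction 193 named protein-coding genes outside the lists, with at least 2 CPM in each muscle-low library, were below in all 3, and 0 by 2-fold. The genes tested, without that minimum, gave 1.45% below at any size and 0.0% by 2-fold. The largest gap was in Bank1, an adaptor of B cells, at 7.22 to 7.33 CPM against 10.6 to 15.3. Slc7a10, an amino acid transporter of white adipocytes, was at 332 to 375 CPM against 421 to 525, and Grb14, an inhibitor of the insulin receptor, at 130.2 to 166 CPM against 189 to 221. Klhl5 and Akap12 were at 98.4 to 105 CPM against 124 to 138 and 137 to 169 CPM against 188 to 292. Differences downwards were thus small beside those of the muscle genes.

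Markers of other tissues mostly overlapped between the sides. Of 9 cardiac genes 1 was above, Sbk2, at 10.1 to 28.7 CPM against 1.75 to 4.15, and Myh6, the heavy chain of the atrium, had at most 10 estimated counts in a library. Of 13 smooth muscle and mural genes 1 was above, Lmod1, at 7.56 to 7.78 CPM against 1.4 to 4.38, whereas Acta2, the actin of smooth muscle, was at 85.6 to 153 CPM against 95.8 to 153. None of 8 tendon genes, 10 nerve and Schwann cell genes, 12 endothelial genes, 16 extracellular matrix genes, 10 progenitor and fibroblast genes, 12 lymphocyte genes, 18 liver genes, 6 blood genes, 15 cell cycle genes, 10 lipogenesis genes, 13 mitochondrially encoded genes, 10 keratinocyte genes or 11 epithelial genes was above in all 3. Over the genes tested 3.60% were above and 1.45% below, so 0 above in lists this short is near that share. Of the 10 keratinocyte genes 1 was below in all 3. Scx, a transcription factor of tendon, was at 0.802 to 1.26 CPM against 0.292 to 1.27. Of 12 macrophage genes Cd14 was above, at 6.51 to 10.6 CPM against 4.49 to 6.35, and of 12 immediate early genes Nr4a1, at 6.64 to 22.6 CPM against 2.67 to 4.49. The thermogenic list had 4 of 19 above, and these were Cpt1b, Ckmt2, Fabp3 and Cox7a1, which serve fatty acid and energy use in muscle as well as in brown fat. Ucp1 (the uncoupling protein of brown and beige fat) was at 6.01, 168 and 29.2 CPM in the muscle-high libraries, and 1.14, 2.45, 0.972, 1.13, 7.08 and 4.23 in the muscle-low ones, so WT 1 overlapped with the muscle-low libraries. The part of thermogenic fat cells in the shared genes was not tested.

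Fat's own genes were present on both sides. Of 18 adipocyte genes 0 were above and 2 below, against 1.45% of the genes tested. Adipoq (adiponectin, secreted by adipocytes) was at 942, 903 and 1216 CPM in the muscle-high libraries, and 1517, 1451, 1524, 1238, 1494 and 1564 in the muscle-low ones. The highest muscle-high library, Hete KO 2, was thus just under the lowest muscle-low one. Acvr1c, a receptor of adipocytes for activins, was the other, at 302 to 422 CPM against 428 to 569.9. Cfd (the protease adipsin) was at 105, 150.2 and 1284 CPM in the muscle-high libraries, and 376, 473, 705, 453, 778 and 894 in the muscle-low ones, and did not follow the sides.

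Since both WT and Hete KO held libraries of each side, the sides were also set against each other within genotype. All 14 fast-type genes were higher in WT 1 and WT 2 than in WT 3, with a median log2 ratio of 6.94, and 12 of 14 were higher in Hete KO 2 than in Hete KO 1 and 3, with a median of 5.04. Of the 166 muscle list genes 137 were higher and 9 lower in WT 1 and 2, with a median of 2.76, and 140 were higher and 11 lower in Hete KO 2, with a median of 3.19. Over the genes tested, 29.5% were higher and 31.6% lower in the WT comparison, and 33.6% and 35.7% in the Hete KO comparison. Homo KO had no muscle-high library.

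Several other lists had median log2 ratios of opposite sign in the 2 genotypes, and some had the same sign in both. All 15 cell cycle genes were higher in WT 1 and 2 than in WT 3, with a median log2 ratio of 0.51, and 13 of 15 were lower in Hete KO 2 than in Hete KO 1 and 3, with a median of -0.51. Mki67 (a marker of dividing cells) was at 104, 102 and 21.3 CPM in the muscle-high libraries, and 63.4, 44.7, 43.5, 55.2, 43.1 and 36.4 in the muscle-low ones. Macrophage genes were higher in 10 and lower in 1 of 12 in WT (median 0.51). In Hete KO 2, 2 of the 12 were higher and 7 lower (median -0.34). Extracellular matrix genes were higher in 7 and lower in 2 of 16 in WT (median 0.20), and lower in 12 of 16 in Hete KO 2 (median -0.60). Col1a1, a chain of type I collagen, was at 911, 1486 and 492 CPM in the muscle-high libraries. Adipocyte genes were lower in 16 of 18 in WT (median -0.46), and in Hete KO 2 6 were higher and 9 lower (median -0.06). Genes of endothelial cells, the cell type in which AGO1 was deleted, were higher in 8 and lower in 0 of 12 in WT (median 0.27). In Hete KO 2, 2 of the 12 were higher and 5 lower (median -0.09). Of all genes tested 33.6% were higher and 35.7% lower in Hete KO 2, so the 5 lower were near that share. Liver genes had a negative median in both, with 0 of 18 higher and 7 lower in WT (median -0.85) and 2 higher and 10 lower in Hete KO 2 (median -0.93). In WT this median does not describe both muscle-high libraries alike. For 16 of the 18 liver genes WT 2 and WT 3 were above each of the other 7 libraries, WT 1 included. Thermogenic genes had a positive median in both, with 9 of 19 higher and 2 lower in WT (median 0.59) and 13 higher and 3 lower in Hete KO 2 (median 0.81). So did immediate early genes, with 10 of 12 higher and 1 lower in WT (median 0.89) and 6 higher and 2 lower in Hete KO 2 (median 0.27). No test was made, because the libraries were chosen by their values.

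Across the 17818 tested genes outside the muscle lists, log2 ratios within WT and within Hete KO had a Pearson r of 0.34 and a Spearman rho of 0.08. Genes are not independent replicates, each ratio sets 3 libraries of a genotype against each other, and no p is given. By 2-fold or more, 220 of these genes were higher in both genotypes, 30 lower in both, 24 higher in WT and lower in Hete KO 2, and 11 the reverse. With the muscle lists included the number higher in both was 324.

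**Figure D4:**
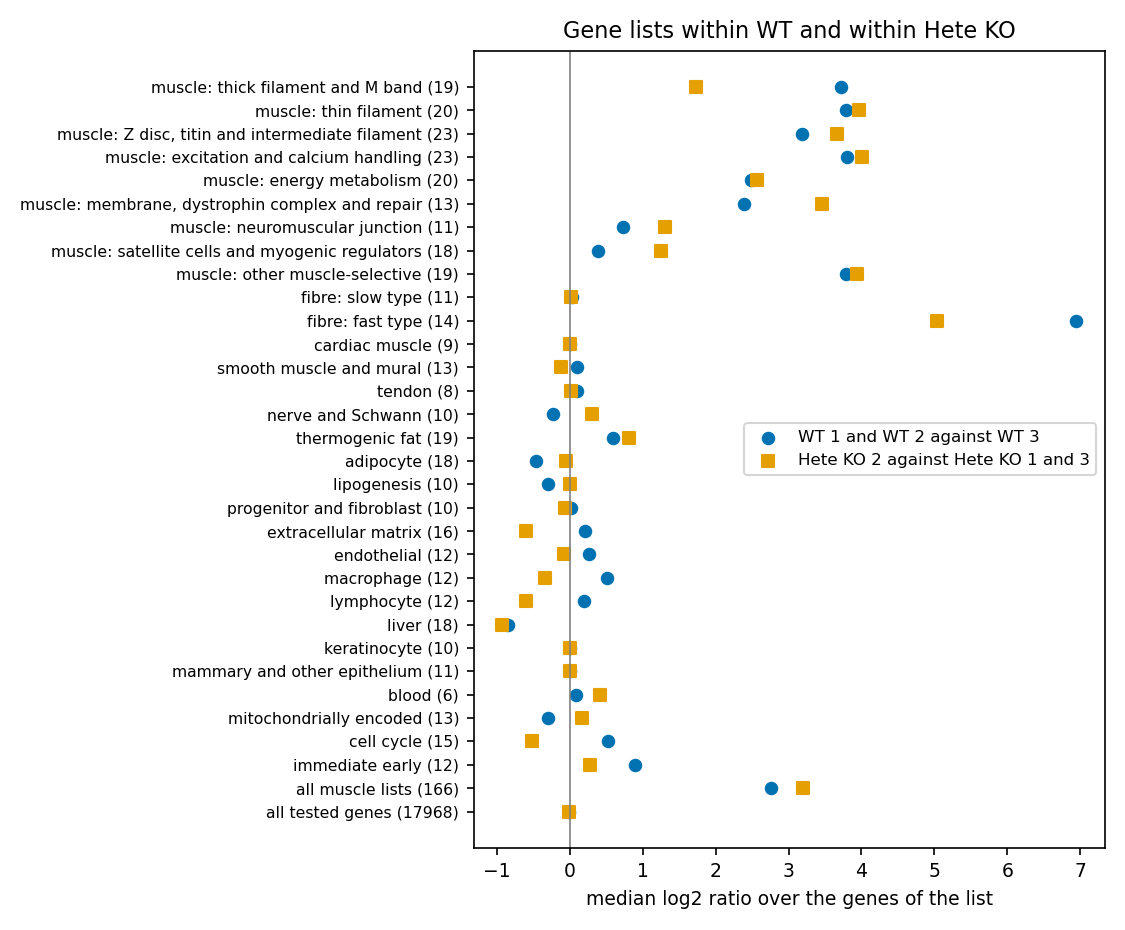
Median log2 ratio of each gene list (number of genes in brackets) between muscle-high and muscle-low libraries within WT (circles) and within Hete KO (squares). Ratios are of CPM. Muscle lists lie right of 0 in both genotypes, and slow-type and cardiac genes lie near 0. In TPM, not drawn, the slow-type median within WT was 0.65. Cell cycle, macrophage and extracellular matrix genes lie on opposite sides of 0.

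Because the muscle-high libraries were spread unevenly over the genotypes, the muscle genes were followed in the genotype comparisons. The groups here are those of the labels, but the marker values are the ones that chose the libraries, so these tests say nothing about the sides. Mean log2 percent of the 4 markers differed by -4.30 between Homo KO and WT (p = 0.3, adjusted 0.6), by 0.30 between Hete KO and WT (p = 1.0, adjusted 1.0) and by -4.59 between Homo KO and Hete KO (p = 0.1, adjusted 0.4), in exact two-sided permutation tests with adjustment over 4 comparisons. With 3 libraries against 3, 0.1 is the smallest p possible, so no outcome could pass 0.05. Both knockout groups against WT differed by -2.00 (exact permutation p = 0.464, adjusted 0.619). In the third of these comparisons each Hete KO library was above each Homo KO library. In edgeR's quasi-likelihood test with Benjamini-Hochberg adjustment, Acta1 gave -5.34 on the log2 scale for Homo KO against WT (SE 1.82, adjusted p = 0.225), Ckm -6.26 (SE 2.09, adjusted p = 0.222), Myh4 -5.98 (SE 2.13, adjusted p = 0.238) and Mylpf -5.55 (SE 1.89, adjusted p = 0.225), none past the threshold of 0.05. DESeq2 gave Myh4 and Mylpf an adjusted p of 0.0339 and 0.0319 in this comparison, past the threshold, and none to Acta1 and Ckm. In Hete KO against WT the same fold changes were 0.50, 0.66, 0.85 and 0.33 (adjusted p from 0.822 to 0.924, edgeR), and in Homo KO against Hete KO they were -5.84, -6.93, -6.83 and -5.88 (adjusted p = 0.899, edgeR). Without Hete KO 2 alone, Homo KO against Hete KO gave -2.30, -2.93, -2.88 and -2.57, and the difference in mean log2 marker percent went from -4.59 to -2.74. Hete KO against WT then turned to -3.06, -3.34, -3.11 and -3.00.

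None of the 150 muscle list genes tested was called by edgeR in any of the 3 comparisons. Called genes were 0.0% of those tested in Homo KO against WT and in Homo KO against Hete KO, and 0.15% higher and 0.267% lower in Hete KO against WT. An unadjusted p under 0.05 was reached by 98 of the 150 in Homo KO against WT (16.4% of all genes tested), by 5 in Hete KO against WT (21.9%) and by 104 in Homo KO against Hete KO (5.44%). The median log2 fold change of the 150 was -3.24, 0.33 and -3.78, against -0.01, 0.02 and 0.00 over all genes tested. Of the 50 genes with the lowest fold change, 16 in Homo KO against WT and 29 in Homo KO against Hete KO were muscle list genes, and 0 in Hete KO against WT. DESeq2 called 29 muscle list genes lower and 1 higher in Homo KO against WT, where it called 2.03% of the genes tested lower and 1.61% higher. It called 2 higher and 2 lower in Hete KO against WT (3.62% and 5.7% of the genes tested) and 0 higher and 1 lower in Homo KO against Hete KO (0.0223% and 0.0278%). It gave no adjusted p to 36, 37 and 29 of the muscle list genes in these comparisons.

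Without the 3 muscle-high libraries, where WT 3 was the only WT library and was assumed to vary like the others, the medians over 145 muscle list genes became 0.28, 1.11 and -0.91. These libraries were removed for their high muscle values and WT 3 was itself on the low side, so a smaller difference between Homo KO and WT follows from the choice. Fitted with the log2 marker share as a covariate, the medians were 0.07, -0.09 and 0.11. The 4 markers are in the muscle lists, so medians near 0 follow from the construction of that fit. Neither setting is a test of genotype, and the muscle share cannot be told apart from genotype where all Homo KO libraries are on the muscle-low side.

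**Figure D5:**
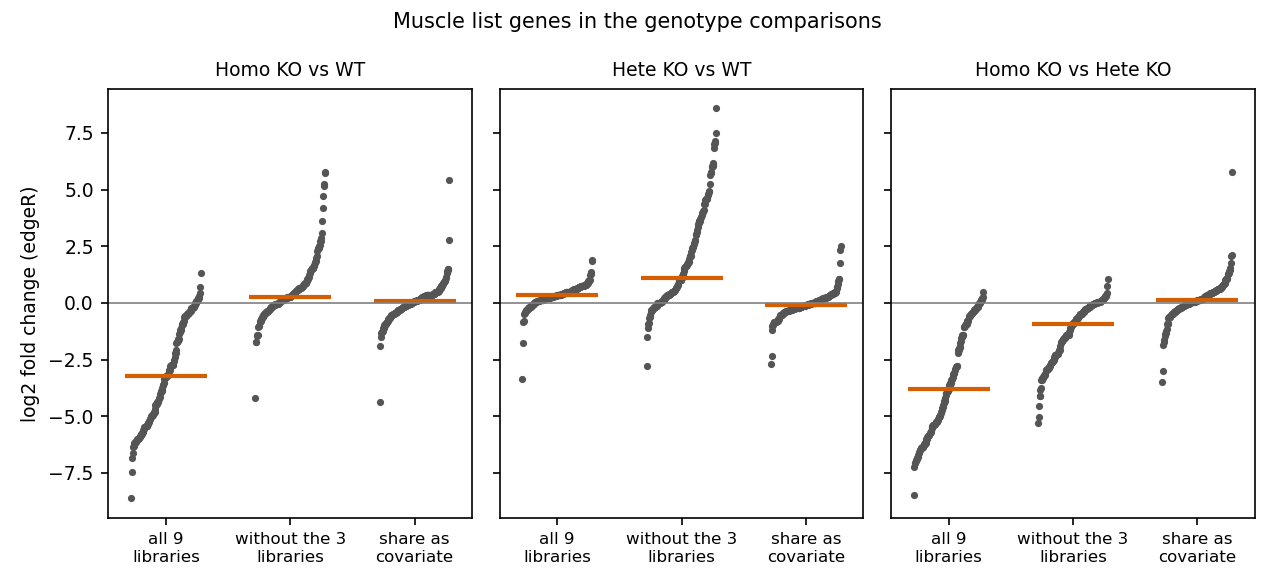
Log2 fold change (edgeR) of each muscle list gene in the 3 genotype comparisons, from all 9 libraries, without the 3 muscle-high libraries, and with the marker share as a covariate; each point is a gene in order of its value and the bar is the median. Medians move from -3.24 to 0.28 and 0.07 in Homo KO against WT and from -3.78 to -0.91 and 0.11 in Homo KO against Hete KO, under settings that use the marker values themselves.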

How the data were processed

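Whole-tissue RNA of 9 libraries was sequenced. Per the file headers, each deposited file lists transcripts with an estimated count, not normalized and often fractional, and with TPM, which the authors' quantifier scaled to effective length and library total. Per the submitters' processing notes mm10 was the build used, and the quantifier is not given in the sources used here. Transcripts were matched by identifier to GENCODE M21 (111362 of 113193, the rest holding 0.581 to 1.06% of a library's counts being left out) and summed to 35071 genes, and the estimated counts were rounded for the tests. After edgeR's filter on low counts 17968 genes were tested with the quasi-likelihood F-test, TMM normalization, all 9 libraries and 6 residual degrees of freedom. A prior count of 0.125 was used for fold changes, and the SE is the size of the log2 fold change divided by the square root of F. Groups come from the genotype labels. The sides were chosen by the readout, so they are described and not tested, by the count of genes whose libraries do not overlap and by log2 ratios of medians with 0.5 CPM added. Members, lists (30, of which 9 are of muscle), pairs and the threshold of 0.15% were chosen with earlier results of these data known. Named genes are the markers, the heavy chains, those with the highest median CPM of each list, both genes of each pair and, outside the lists, 15 per direction with at least 2 CPM and the largest gap. Genes named beyond these were chosen after their values were seen. Other settings were another normalization, DESeq2, other filters, TPM, a replicate block, the marker share as a covariate and leaving out libraries. The model script was checked on simulated counts. Software: R 4.3.3, edgeR 4.0.16, limma 3.58.1, DESeq2 1.42.0, Python 3.11.15, pandas 2.3.3, numpy 2.4.6, scipy 1.17.1 and matplotlib 3.10.9.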

Additional observations from a re-analysis of the deposited data

How the results depend on the processing

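Muscle transcripts in the muscle-low libraries, and the choice of the sides by their values, limit what the sides can show, and paralogous heavy chains and shared isoforms limit how counts were divided. Of the 130 values of main results under other settings, 91 stayed on their side of the threshold or near their value, 37 moved and 2 reversed sign. The 130 include permutation tests of the marker share whose smallest possible p was 0.1. Only a turn of sign could count as a change in those, so the 91 does not measure how stable the results are. Genes above in all 3 muscle-high libraries numbered 646, or 203 by 2-fold, and 677 to 1618 with a library left out. Genes below numbered 260, or 171 in TPM, 0 by 2-fold, and 291 to 1430 with a library left out. With the same genes and scaling, leaving a library out cannot lower either count, so the rise follows from the condition. The median log2 ratio of the muscle lists was 2.84, and 2.74 to 3.40 with a library left out. Within Hete KO the median of the tendon genes went from 0.011 to -0.028 in TPM, a setting added after seeing the data. In the same setting the median of the slow-type genes went from 0.023 to 0.65 within WT and from 0.012 to 0.065 within Hete KO.

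Genes called in Hete KO against WT numbered 75 by edgeR, 1674 by DESeq2, 258 without a filter, 0 with 2 groups fitted, 149 with the marker share as a covariate, 239 without the muscle list genes and 11 without the 3 muscle-high libraries. They ranged from 0 without Hete KO 3, Homo KO 1 or Homo KO 2 to 958 without Hete KO 1. Their number was 431 without WT 1, 1 without WT 2, 26 without WT 3, 1 without Hete KO 2 and 2 without Homo KO 3. Homo KO libraries are not part of this comparison and enter it only through the shared fit. In Homo KO against WT they numbered 0, 654 by DESeq2, 1 without a filter, 7 with 2 groups fitted, 1 without the muscle list genes, 41 without the 3 libraries, and 0 to 153 with a library left out, the highest without WT 1. In Homo KO against Hete KO they numbered 0, and 9 by DESeq2. The causes were not tested.

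The marker share sums the 4 markers, so a fold change near 0 with it as a covariate follows from its construction. In that fit the log2 fold change turned to 0.0056 for Acta1, 0.11 for Myh4 and 0.068 for Mylpf in Homo KO against WT, to -0.24 for Acta1 and -0.013 for Mylpf in Hete KO against WT, and to 0.24 and 0.082 in Homo KO against Hete KO. Without the 3 muscle-high libraries Homo KO against WT turned to 0.67 for Acta1, 0.83 for Ckm, 1.46 for Myh4 and 1.54 for Mylpf, Hete KO against WT went to 2.97, 3.77, 4.35 and 4.11, and Homo KO against Hete KO to -2.30, -2.94, -2.89 and -2.56, in the same order of genes. With a library left out, Hete KO against WT ranged from -3.06 to 1.1 for Acta1, -3.34 to 1.26 for Ckm, -3.11 to 1.45 for Myh4, -3.00 to 0.93 for Mylpf and -2.22 to 1.71 for the log2 marker share. Homo KO against Hete KO ranged from -6.44 to -2.30, -7.64 to -2.93, -7.66 to -2.88, -6.51 to -2.57 and -6.00 to -2.74 in that order, the smallest size being without Hete KO 2 in each.

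Whether replicate numbers pair the libraries was not settled. In their deviations from group means, same-numbered libraries correlated between -0.09 and 0.53 and differently numbered ones between -0.54 and 0.29. The highest value was same-numbered, WT 3 with Hete KO 3 (0.53), followed by WT 2 with Hete KO 2 (0.30). WT 1, however, went with Hete KO 2 (0.29) rather than Hete KO 1 (-0.09). With the replicate block 248 genes were called in Hete KO against WT, 0 in each of the other comparisons, and Acta1 was at -0.048 in Hete KO against WT.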

Other observations

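Liver genes set WT 2 and WT 3 apart, and these libraries fall on different sides of the muscle rule. Of the 18 genes of the liver list 16 were higher in both than in each of the other 7 libraries, a count made after the values were seen. The 2 others, Pck1 and Cyp2e1, were among the highest of the list, and Pck1, which fat cells also use to make glycerol, was at 635 to 4071 CPM. With these 2 included the list took 0.0713% of counts in WT 1 and 0.247 to 0.407% in the other libraries, with WT 2 and WT 3 not the highest. Alb (albumin, the main product of hepatocytes) was at 6.43, 633 and 32.4 CPM in the muscle-high libraries, and 609, 19.5, 46.9, 21.7, 32.4 and 33.7 in the muscle-low ones, and Apob, the protein of liver lipoproteins, followed it at 243 CPM in WT 2 and 230.1 in WT 3 against 1.0 to 11 in the other 7. WT 2 alone had 168 CPM of Ucp1, while Prdm16, a regulator of the brown fat program, was at 28.3 to 42.1 CPM over all 9 libraries. Mitochondrially encoded transcripts took 2.08% of counts in WT 2 and 2.91 to 4.22% in the other libraries.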
